A study of Mus musculus with 12 samples.

Results

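The genes described here are 34 DNA repair and checkpoint genes, chosen by name with earlier results of these data known. Their roles are in homologous recombination, the Fanconi pathway, mismatch repair and checkpoint signalling. They were found by gene symbol among the 54532 genes of a count table of C2C12, a mouse myoblast line whose cells leave the cycle and fuse into myotubes when serum is withdrawn. All 34 were in the table and all 34 passed the filter on low counts, together with 15122 genes in all. The study asked how the loss of cyclin F (CCNF) affects myoblasts that also lack KEAP1. Cells of this 1 line were transfected with 30 nM siRNA that was non-targeting (siCONTROL) or targeted Keap1 (siKEAP1), Ccnf (siCCNF) or the 2 genes together (siKEAP1/siCCNF, the double depletion), and poly(A)-selected RNA was taken 48 h later. Each of the 4 groups had 3 libraries from biological replicates, and the cells carried no other genetic change that the labels name. The sources used here do not say which of the study's Ccnf siRNAs was sequenced, nor whether the double depletion had 30 nM in all or of either siRNA, so off-target effects of a single siRNA sequence cannot be told apart from the effect of its target.

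Homologous recombination repairs broken DNA from the sister chromatid. BRCA1, BARD1, PALB2 and BRCA2 prepare resected ends for strand exchange, and helicases and nucleases then dissolve or cut the joined molecules. The Fanconi proteins open the way for this repair at crosslinks, and the kinases ATM and ATR, with their effectors CHEK2 and CHEK1, hold the cell cycle while repair proceeds. Many of these genes are transcribed mainly in S and G2 phase, under E2F factors and other cell cycle regulators, so their mRNA is abundant in dividing cells and falls when myoblasts leave the cycle. Cyclin F is the substrate receptor of an SCF ubiquitin ligase that marks cell cycle proteins for degradation, E2F activators among them. KEAP1 is the adaptor of the CUL3 ligase that turns over NRF2, the transcription factor of the oxidative stress response.

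The libraries held between 18464209 and 37743198 counts in genes and each member had between 85 and 4493 counts in every library. Keap1 fell from 87.8 ± 3.05 CPM (counts set to a common library total and scaled by TMM, mean ± SD, n = 3) in siCONTROL to 12.6 ± 0.279 after siKEAP1, and was at 24.1 ± 2.56 in the double depletion. Ccnf fell from 81.1 ± 3.99 to 20.5 ± 0.778 CPM after siCCNF and to 24.5 ± 1.00 in the double depletion. Ccnf was also lower after siKEAP1 alone, at 59.4 ± 4.83 CPM. The myoblast markers Myod1, Myf5, Des, Cdh15 and Pax7 were present in every library but lower after each depletion, with sums of 1104 to 1311 CPM in siCONTROL, 630 to 666 after siKEAP1, 527 to 533 after siCCNF and 503 to 584 in the double depletion, whereas 4 markers of blood, endothelial and epithelial cells summed to at most 2.31 CPM. The 6 markers of differentiated muscle summed to between 52.2 and 122 CPM in siCONTROL and to at most 21.2 CPM in each other library. In siCONTROL replicate 1 and siKEAP1/siCCNF replicate 3, longer genes lay lower against the other libraries of their group, with Pearson r of -0.305 and -0.276 between gene length and the deviation across genes, which are not replicates. The members were long, with a median length of 5837 bases against 3930 for all genes tested, and their median deviation was -0.122 and -0.12 on the log2 scale in these libraries. Results are therefore also given without both libraries where that changed them. In that fit siCONTROL and siKEAP1/siCCNF each have 1 library fewer. Both libraries were picked from these same data, so adjusted p-values of that fit can be too small.

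Levels between genes were compared as FPKM, which divides by gene length. In siCONTROL the most abundant member was Msh6, a mismatch recognition gene, at 22.7 ± 1.38 FPKM (SD, n = 3). It was followed by Topbp1, the scaffold that activates ATR, at 15.0 ± 1.57 FPKM, and by Nbn, the NBS1 subunit of the complex that senses broken ends, at 13.3 ± 0.517 FPKM. Topbp1 and Nbn differed by little more than the SD of Topbp1. At the other end stood Palb2, the bridge between BRCA1 and BRCA2, at 0.738 ± 0.0753 FPKM, and the kinase gene Atr at 1.48 ± 0.355 FPKM. The other 29 members lay between these levels.

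Depletion of CCNF lowered most of the members. After siCCNF 23 of the 34 were lower than in siCONTROL and none was higher (edgeR's quasi-likelihood test, adjusted p under 0.05), where 25.5% of all genes tested were called lower and 22.5% higher. Of the remaining 11 members, 9 had a negative log2 fold change. The median log2 fold change of the members was -0.59, against 0.01 for all genes tested. Summed over the members, expression went from 1129 ± 103 CPM in siCONTROL (1010 to 1192) to 793 ± 40.9 CPM after siCCNF (747 to 825), and these ranges did not overlap. The 3 siCCNF libraries lay apart from the 3 siCONTROL libraries for 25 of 34 members, and for 56.4% of all genes tested. Changes of more than 2-fold were fewer, with 5 members (Rad51ap1, Topbp1, Eme1, Fanca and Fancb) past that limit where 6.76% of all genes tested were lower by as much. The count of lower members was between 21 and 27 (the last without siCONTROL replicate 1) when each library was left out in turn. In these fits 3336 to 4017 of all genes tested were called lower. The count was 28 without both libraries with a length trend, where 27.9% of all genes tested were called lower.

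**Figure D1:**
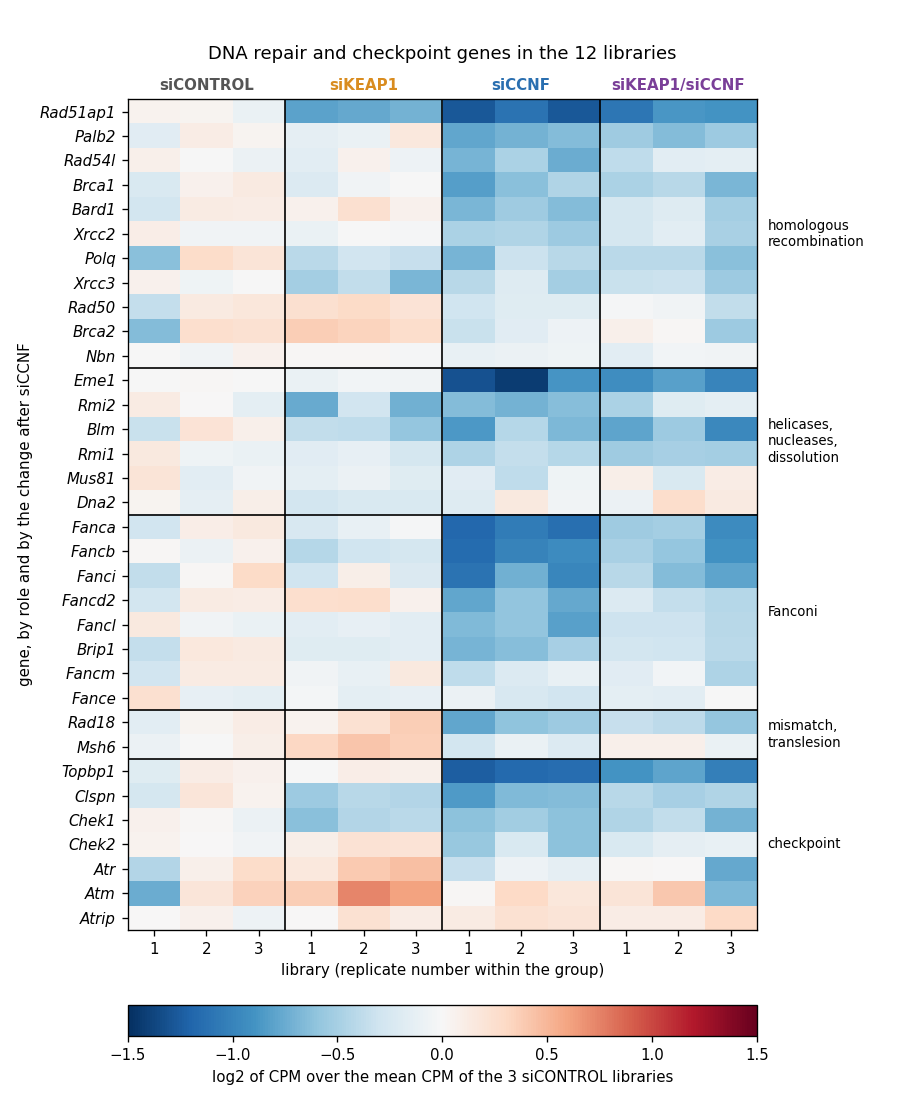
Each row is 1 of the 34 genes and each column 1 of the 12 libraries, with the colour giving log2 of the CPM over the mean CPM of the 3 siCONTROL libraries (blue lower, red higher). The siCCNF columns are the bluest in most rows, Nbn is pale throughout, and siCONTROL replicate 1 and siKEAP1/siCCNF replicate 3 are low for Atm, Brca2 and Atr.

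Markers of proliferation moved in the same direction. All 8 (Mki67, Top2a, Ccna2, Ccnb1, Cdk1, Mcm2, Mcm5 and Pcna) were called lower after siCCNF, and their summed level was 2199 to 2533 CPM in siCONTROL, 1786 to 1848 after siKEAP1, 1218 to 1356 after siCCNF and 1399 to 1569 in the double depletion. The 3 activator genes E2f1, E2f2 and E2f3 were also lower, with sums of 170 to 183, 120 to 123, 100 to 103 and 99.0 to 105 CPM in the same order. None of these markers was at 0 in any library. The part of cell cycle position in the changes of the repair genes was not tested. In bulk RNA another share of cells in each phase cannot be told apart from less of each mRNA per cell. The paper states that cells build up in S and G2 phase when CCNF is lost, and these libraries hold no measure of phase. Many repair genes are, as described above, transcribed mainly in those phases, yet most members fell after siCCNF. How this fall relates to the build-up was not tested.

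The promoters of the members were searched for the strings that E2F factors and cell cycle regulators are known to bind. RefSeq promoter windows on GRCm38.p6, from 250 bases before to 50 bases after the annotated start, were found for 29 of the 34 genes, and none for Rmi2, Xrcc2, Nbn, Fancd2 and Rad50. An E2F string (TTTCCCGC, TTTGGCGC, TTTCGCGC or TTTGCCGC on either strand) was in 7 of 29 members (24.1%), in 2.60% of the 27025 genes with a window and in 4.59% of the 10546 tested genes with one. It was present in 6 of 20 members called lower after siCCNF and in 1 of 9 not called, which was Brca2. The split depends on calls that changed with the libraries used. Msh6, among those called, lost its call in most fits that left out 1 library. Brca2 was called lower without both libraries with a length trend. Whether the string goes with the fall was not tested. A CCAAT box (CCAAT on either strand) was in 17 of 29 members (58.6%) and in 42.9% of tested genes, and a CHR string (TTTGAA or TTCGAA on either strand) in 4 of 29 members (13.8%) and in 16.2% of tested genes. A match describes letters and not a bound site. The stretches around the E2F strings that lie before the annotated start are shown because they are the matches outside the transcript, with the E2F string in capitals, and Rad51ap1 is shown because it fell most, with its CCAAT box on the reverse strand in capitals. They are written 5′ to 3′ on the strand of the gene.
Bard1 (chr1:71103147-71103221, minus strand): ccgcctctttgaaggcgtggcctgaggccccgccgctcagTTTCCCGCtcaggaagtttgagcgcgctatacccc
Brca2 (chr5:150522413-150522500, plus strand): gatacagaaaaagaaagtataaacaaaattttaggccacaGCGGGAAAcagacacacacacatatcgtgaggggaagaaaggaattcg
Chek2 (chr5:110839791-110839878, plus strand): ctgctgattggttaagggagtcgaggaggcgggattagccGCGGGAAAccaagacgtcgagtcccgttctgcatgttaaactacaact
Topbp1 (chr9:103305158-103305214, plus strand): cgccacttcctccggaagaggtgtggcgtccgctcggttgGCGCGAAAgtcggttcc
Rad51ap1 (chr6:126939588-126939667, minus strand): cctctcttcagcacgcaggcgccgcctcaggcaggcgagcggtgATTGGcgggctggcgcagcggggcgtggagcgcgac

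Of the 11 genes grouped with homologous recombination, 7 fell after siCCNF. Rad51ap1 (ENSMUSG00000030346, chr6:126923050-126939587 of GRCm38, minus strand) encodes a DNA-binding protein that promotes strand invasion. It was at 32.2, 31.8 and 28.9 CPM in the siCONTROL libraries, at 17.7, 18.2 and 19.0 after siKEAP1, at 12.8, 14.3 and 12.8 after siCCNF, and at 14.6, 16.9 and 16.7 in the double depletion. Every siCCNF library was thus below every siKEAP1 and siCONTROL library. Its log2 fold change after siCCNF was -1.22 ± 0.09 (SE), with an adjusted p of 1.74e-07, the largest fall among the members. Its promoter is the one printed above with a CCAAT box and no E2F string.

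Brca1, Bard1 and Palb2 all fell. Brca1, whose product directs repair to recombination, was at 50.1, 61.3 and 64.2 CPM in siCONTROL and at 32.9, 37.8 and 42.7 after siCCNF, so the groups did not overlap. Its log2 fold change was -0.63 ± 0.12 (adjusted p = 0.000569). Bard1, the RING partner of BRCA1, fell by 0.62 on the log2 scale (SE 0.11, adjusted p = 0.000572), and Palb2 by 0.71 (SE 0.14, adjusted p = 0.000808). Brca2, a mediator of strand exchange, was not called. It was at 15.96, 29.7 and 29.4 CPM in siCONTROL and at 19.8, 22.2 and 23.7 after siCCNF, with siCONTROL replicate 1 below every siCCNF library, and its log2 fold change of -0.19 ± 0.20 had a 95% interval of -0.63 to 0.25. Without the 2 libraries with a length trend the value was -0.43 (adjusted p = 0.000202).

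The strand exchange motor gene Rad54l fell by 0.64 on the log2 scale after siCCNF (SE 0.10, adjusted p = 0.000177). Xrcc2 and Xrcc3, which act in strand exchange, fell by 0.49 (SE 0.09) and 0.37 (SE 0.11), the second with an adjusted p of 0.0172 that was lost when siCCNF replicate 1 or 3 was left out. The genes of the end-sensing complex were not called. Rad50, the coiled-coil ATPase, had a log2 fold change of -0.22 (95% interval -0.50 to 0.05), and Nbn one of -0.09 (-0.23 to 0.05). The interval of Nbn holds no fall beyond 0.23. Polq, the polymerase of microhomology-mediated end joining, was at 14.9, 27.9 and 26.4 CPM in siCONTROL and at 14.3, 18.5 and 17.3 after siCCNF. Its change of -0.47 ± 0.19 narrowly missed the threshold (adjusted p = 0.0539), and it was -0.71 (adjusted p = 1.61e-05) without both libraries with a length trend. Rad50 was also called lower without them, at -0.37 (adjusted p = 2.99e-05).

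Among the 6 helicase, nuclease and dissolution genes, 4 fell after siCCNF. Eme1 (ENSMUSG00000039055, chr11:94644996-94653964, minus strand) encodes the regulatory partner of the MUS81 nuclease, which cuts joint molecules. It was at 13.3, 13.6 and 13.3 CPM in siCONTROL, 12.5, 12.96 and 12.9 after siKEAP1, 5.42, 4.98 and 7.25 after siCCNF, and 6.98, 7.58 and 6.72 in the double depletion. The 6 libraries with Ccnf siRNA were thus all far below the other 6. The log2 fold change after siCCNF was -1.18 ± 0.13 (adjusted p = 6.64e-06). Its catalytic partner was not called. Mus81 was at 30.5, 23.8 and 25.7 CPM in siCONTROL and at 23.7, 20.5 and 25.6 after siCCNF, overlapping groups with a log2 fold change of -0.20 (95% interval -0.45 to 0.06). Whether both partners differ in their change was not tested.

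Blm, Rmi1 and Rmi2 encode the helicase and the 2 OB-fold partners of the complex that dissolves double Holliday junctions. All 3 fell after siCCNF, Blm by 0.65 on the log2 scale (SE 0.15, adjusted p = 0.00379), Rmi1 by 0.42 (SE 0.08, adjusted p = 0.000883) and Rmi2 by 0.66 (SE 0.14, adjusted p = 0.00179). Dna2, the nuclease and helicase of long-range resection, had a log2 fold change of -0.03 with a 95% interval of -0.28 to 0.22.

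The Fanconi group held 6 falling genes of 8 and the lowest median among the roles of the members, at -0.70 on the log2 scale. This rank holds for the listed members only. The 12 further Fanconi genes counted below had a median of -0.17, with 4 lower and 1 higher. Fanca, a core complex subunit, was at 13.5, 17.7 and 18.3 CPM in siCONTROL and at 7.33, 8.01 and 7.51 after siCCNF. Fancb, another core subunit on the X chromosome (chrX:164980592-164997272, plus strand), was at 15.6, 14.5 and 16.2 CPM and at 6.93, 7.70 and 7.998. Both sets of siCCNF libraries lay well below siCONTROL, with log2 fold changes of -1.12 ± 0.14 (adjusted p = 2.64e-05) and -1.03 ± 0.12 (adjusted p = 9.37e-06). Fanci and Fancd2 encode the pair that the core complex ubiquitylates, and they fell by 0.93 (SE 0.17) and 0.71 (SE 0.11) on the log2 scale. Fancl, the ubiquitin ligase subunit, fell by 0.69 (SE 0.10), and Brip1, the BRCA1-binding helicase, by 0.60 (SE 0.12). The uncalled genes were Fance, the subunit that contacts FANCD2, at -0.20 (95% interval -0.43 to 0.02), and the translocase gene Fancm at -0.23 (-0.52 to 0.06). Fancm was called lower without both libraries with a length trend, at -0.36 (adjusted p = 0.00621).

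Rad18, the ubiquitin ligase that modifies PCNA at stalled forks, was at 31.4, 36.0 and 37.7 CPM in siCONTROL and at 20.4, 23.1 and 24.02 after siCCNF, with no overlap and a log2 fold change of -0.64 ± 0.10 (adjusted p = 0.000246). Msh6 (ENSMUSG00000005370, chr17:87975050-87990883, plus strand) fell far less. It was at 91.3, 97.1 and 103 CPM in siCONTROL and at 80.7, 90.8 and 84.4 after siCCNF, where the highest siCCNF library came close to the lowest siCONTROL library. The change was -0.19 ± 0.07 with an adjusted p of 0.0465, and the call held in 3 of the 12 fits that left out 1 library.

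Of the 7 checkpoint genes, Topbp1, Clspn and the effector kinase genes Chek1 and Chek2 fell, and Atm, Atr and Atrip were not called. Topbp1 (ENSMUSG00000032555, chr9:103305215-103350428, plus strand) was at 150, 183 and 177 CPM in siCONTROL, 169, 182 and 179 after siKEAP1, 72.0, 75.6 and 77.2 after siCCNF, and 91.6, 98.04 and 83.2 in the double depletion. Libraries with and without Ccnf siRNA fell into separate ranges. The log2 fold change after siCCNF was -1.18 ± 0.08 (adjusted p = 1.67e-07). Clspn, the claspin gene that couples ATR to CHEK1 (ENSMUSG00000042489, chr4:126556935-126593903, plus strand), fell by 0.71 (SE 0.10, adjusted p = 6.22e-05). Chek1, the kinase it presents, fell by 0.58 (SE 0.10, adjusted p = 0.000299), and Chek2, the effector of ATM, by 0.47 (SE 0.11, adjusted p = 0.00256).

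The kinases above them, Atm and Atr, varied widely between libraries. Atm was at 26.2, 49.8 and 55.8 CPM in siCONTROL, 56.9, 72.7 and 66.8 after siKEAP1, 44.3, 54.0 and 49.3 after siCCNF, and 50.4, 58.0 and 27.6 in the double depletion. Both outlying values belong to the libraries whose deviations followed gene length. Of these, siCONTROL replicate 1 also had the highest muscle markers of its group. The log2 fold change of Atm after siCCNF was 0.17 ± 0.27 (95% interval -0.41 to 0.74), that of Atr -0.18 ± 0.20 (-0.61 to 0.25) and that of Atrip, the partner of ATR, 0.18 ± 0.09 (-0.01 to 0.37). Without both libraries Atr was called lower, at -0.36 (adjusted p = 0.00378). With 5 members added in this way (Brca2, Rad50, Polq, Fancm and Atr), which of the long genes were called depended on these 2 libraries.

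**Figure D2:**
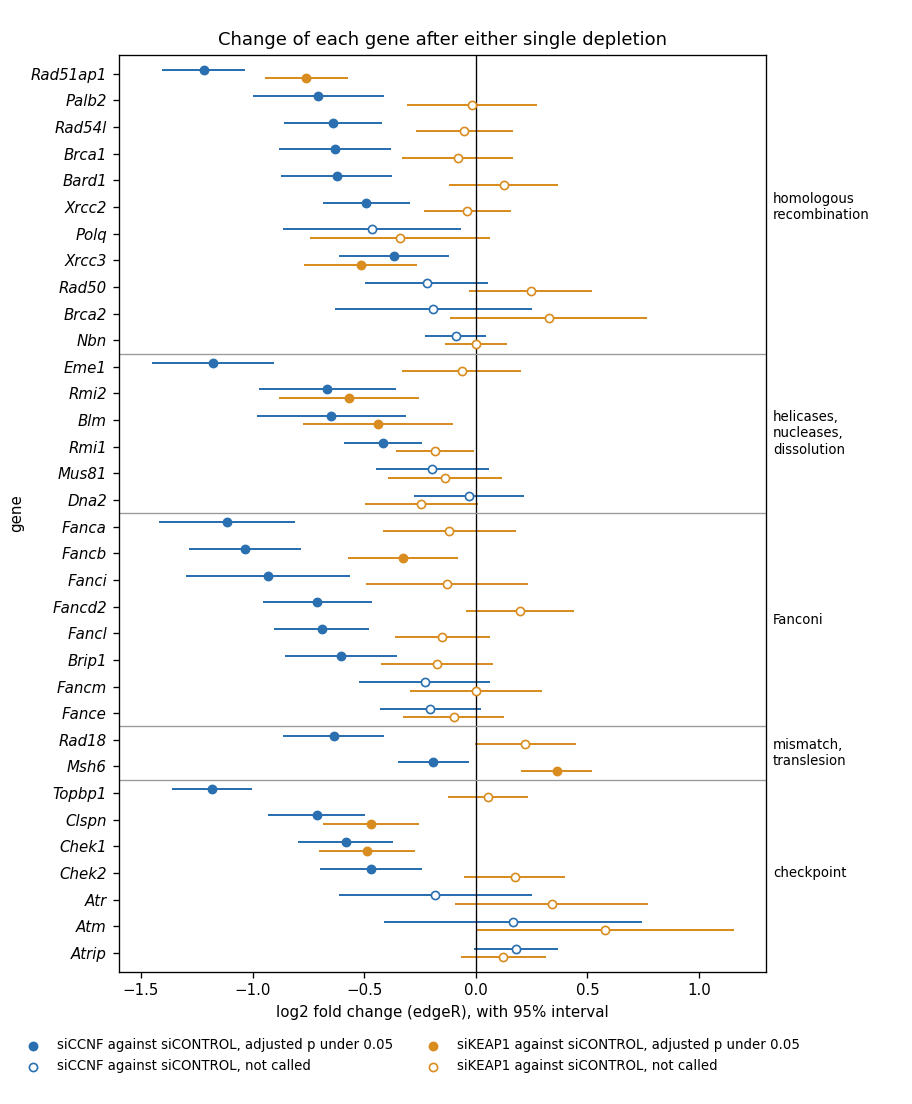
The horizontal axis is the log2 fold change (edgeR) of each gene after siCCNF (blue) or siKEAP1 (orange) against siCONTROL, with 95% intervals, and filled points are called at an adjusted p under 0.05. Filled blue points lie left of 0 in each role, down to -1.22 for Rad51ap1, while most orange points are open and Msh6 is the filled orange point right of 0.

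Depletion of KEAP1 alone changed few of the members. After siKEAP1 7 of 34 were lower and 1 was higher, where 20.2% of all genes tested were called lower and 20.4% higher, so the share of lower members was close to that background. The median of the members was -0.07 on the log2 scale, against -0.01 for all genes tested, and their summed level of 1144 ± 45.6 CPM differed from siCONTROL by less than the spread between libraries. The groups did not overlap for 16 of 34 members, and for 51.5% of all genes tested. No change exceeded 2-fold. The falling genes were Rad51ap1 (-0.76 ± 0.09, adjusted p = 1.31e-05), Rmi2 (-0.57 ± 0.14, adjusted p = 0.00655), Xrcc3 (-0.52 ± 0.12, adjusted p = 0.00307), Chek1 (-0.49 ± 0.10, adjusted p = 0.0015), Clspn (-0.47 ± 0.10, adjusted p = 0.00206), Blm (-0.44 ± 0.16, adjusted p = 0.0382) and Fancb (-0.33 ± 0.11, adjusted p = 0.0367). The calls of Blm and Fancb held in 7 of the 12 fits that left out 1 library, and each was lost without any 1 of the siKEAP1 libraries. The call of Blm was also lost without siCONTROL replicate 2 or 3, and that of Fancb without siCONTROL replicate 1 or 3. The values of all 7 genes after siCCNF, in a comparison that shares the siCONTROL libraries, are given by role above.

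The rule for values by library named Rad51ap1, Rmi2 and Msh6 here. Rmi2 (ENSMUSG00000037991, chr16:10835059-10892966, plus strand) was at 10.9, 10.04 and 9.05 CPM in siCONTROL, 5.90, 8.22 and 6.05 after siKEAP1, 6.36, 6.10 and 6.44 after siCCNF, and 7.18, 8.81 and 9.01 in the double depletion. After either single depletion every library was below siCONTROL, with siKEAP1 replicate 2 the highest of them. Msh6 rose, from 91.3 to 103 CPM in siCONTROL to 121, 130 and 124 after siKEAP1, without overlap and with a log2 fold change of 0.36 ± 0.07 (adjusted p = 0.00141). In the double depletion it was at 103, 102 and 90.9 CPM, within the siCONTROL range or just below it. Of the 8 proliferation markers 5 were called lower after siKEAP1, and all 3 E2F activator genes were.

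The calls after siKEAP1 changed with 2 alternatives that concern gene length. With a length trend removed from each library, 11 members were lower and 3 were higher. The median of all genes tested moved at the same time, from -0.01 to -0.09, and over all genes tested the calls changed from 3050 lower and 3083 higher to 4325 lower and 2843 higher. Without both libraries with a length trend 25.0% of all genes tested were lower. Polq was then also lower, at -0.59 (adjusted p = 0.000134), as were Brip1 at -0.34 (adjusted p = 0.000572) and Fanca at -0.26 (adjusted p = 0.0395). Atm was then called higher, at 0.30 (adjusted p = 0.0235), against 0.58 ± 0.27 (adjusted p = 0.104) over all libraries. Without siKEAP1/siCCNF replicate 3 alone 2 members were higher, where 3270 of 15552 genes tested were.

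**Figure D3:**
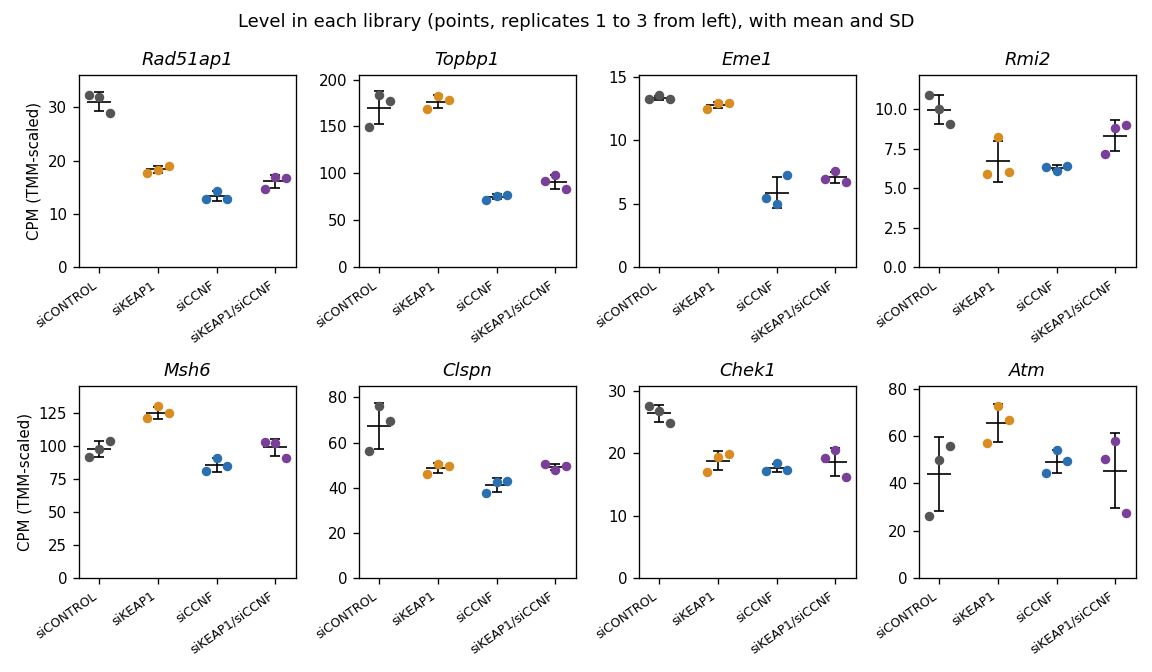
The vertical axes give CPM (TMM-scaled, starting at 0) of 8 genes, with a point for each library, the group mean as a line and the SD as a bar. Rad51ap1 and Topbp1 are lowest in the siCCNF libraries, and Eme1 has its lowest mean there with libraries that overlap siKEAP1/siCCNF. Msh6 is highest after siKEAP1, and Atm has 1 low library in siCONTROL (26.2) and 1 in siKEAP1/siCCNF (27.6).

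In cells depleted of both, 19 members were lower than in siCONTROL and none was higher, where 23.6% of all genes tested were called lower and 20.6% higher. The median was -0.32 on the log2 scale, smaller in size than after siCCNF alone, and no member changed more than 2-fold. Rad51ap1 fell by 0.95 (SE 0.09, adjusted p = 1.81e-06), Eme1 by 0.91 (SE 0.13, adjusted p = 6.91e-05), Topbp1 by 0.90 (SE 0.08, adjusted p = 2e-06) and Blm by 0.75 (SE 0.16, adjusted p = 0.00162). Both this comparison and that of siCCNF share the siCONTROL libraries. The members called there and not here were Rad54l (-0.22, 95% interval -0.44 to -0.01, adjusted p = 0.0889), Rmi2 (-0.26, -0.57 to 0.04), Chek2 (-0.16, -0.39 to 0.07) and Msh6 (0.02, -0.14 to 0.18). The groups did not overlap for 20 of 34 members, where 48.4% of all genes tested did not. The called members Bard1, Fancd2 and Brip1 did overlap, and their calls held in 4, 8 and 7 of the 12 fits that left out 1 library. The median was -0.41 without siCONTROL replicate 1.

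The double depletion was also set against siKEAP1 alone, which compares cells with and without Ccnf siRNA among those given Keap1 siRNA. Keap1 mRNA was depleted less in the double depletion (24.1 ± 2.56 CPM) than after siKEAP1 alone (12.6 ± 0.279 CPM). Of the members, 16 were lower and 1 was higher in the double depletion. The background was 26.9% of all genes tested lower and 24.1% higher. This comparison shares no library with siCCNF against siCONTROL, and 14 members were lower in both, of 16 here and 23 there. The share of all genes tested that were lower in both was not counted. The overlap is therefore not read as a trait of the members. The largest falls were those of Topbp1 (-0.96 ± 0.08, adjusted p = 8.25e-07), Eme1 (-0.85 ± 0.13, adjusted p = 9.5e-05) and Rad18 (-0.66 ± 0.10, adjusted p = 0.000164). Rad51ap1, which was lower after siKEAP1 alone, changed by -0.19 ± 0.09 and was not called (adjusted p = 0.0885). Chek1 (-0.01, 95% interval -0.23 to 0.20) and Clspn (0.02, -0.20 to 0.23) were not lower than after siKEAP1 alone. Dna2 was the gene that rose, from 10.8, 11.1 and 11.1 to 12.3, 15.6 and 14.3 CPM, by 0.35 ± 0.11 (adjusted p = 0.0203), a call that was lost without siKEAP1 replicate 1 or siKEAP1/siCCNF replicate 2. Leaving out siKEAP1 replicate 2 left 10 lower and 2 higher members, and 2 were also higher without siKEAP1/siCCNF replicate 1. Over all genes tested the first fit gave 3591 lower and 3074 higher, and the second 3299 higher. The median of the members was -0.32, and -0.21 without siKEAP1/siCCNF replicate 3.

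The double depletion against siCCNF alone compares cells with and without Keap1 siRNA among those given Ccnf siRNA. There 1 member was higher and none was lower, with a background of 3.00% of all genes tested higher and 2.19% lower. Rad54l rose from 15.8, 18.4 and 15.2 CPM after siCCNF to 19.6, 22.9 and 23.2, by 0.42 ± 0.10 (adjusted p = 0.0306), a call that held in 7 of the 12 fits that left out 1 library. The median of the members was 0.19, and 27 of 34 had a positive value. Fanca (0.47, 95% interval 0.17 to 0.78, adjusted p = 0.0767) and Rmi2 (0.40, 0.10 to 0.71, adjusted p = 0.137) were the largest of those not called. The number called was 12 without both libraries with a length trend, where 7.31% of all genes tested were higher. It was 8 (4.72% of all genes) without siCONTROL replicate 1 alone. That library is in neither group of this comparison and enters it through the filter, the TMM scaling and the shared estimate of the spread. Without it 15548 genes were tested, against 15122 in the main fit. Among those 12 were Fanca (0.59, adjusted p = 0.000983), Topbp1 (0.34, adjusted p = 0.000252), Bard1 (0.39, adjusted p = 0.00164) and Fancd2 (0.43, adjusted p = 0.00386). The number called was 0 without siKEAP1 replicate 3, siCCNF replicate 1, siCCNF replicate 3 or siKEAP1/siCCNF replicate 2. It was 2 without siCCNF replicate 2 and 3 without siKEAP1/siCCNF replicate 3. In these fits 200 to 350 of all genes tested were higher, against 454 over all libraries.

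The interaction tested whether the effect of the Keap1 siRNA differed between cells with and without Ccnf siRNA. It was positive and called for 9 members and negative and called for none, where 10.6% of all genes tested were called positive and 10.5% negative. Rad51ap1 had the smallest adjusted p. It fell by 0.76 on the log2 scale after siKEAP1 alone, and its value in cells with Ccnf siRNA was 0.27 (95% interval 0.08 to 0.46, adjusted p = 0.101), which gave an interaction of 1.03 ± 0.12 (adjusted p = 8.54e-05). For Clspn the libraries were at 56.2, 76.1 and 69.5 CPM in siCONTROL and 46.1, 50.3 and 49.4 after siKEAP1, but at 37.5, 42.6 and 43.0 after siCCNF and 50.5, 47.7 and 49.4 in the double depletion. The siKEAP1 libraries were below siCONTROL, while the double depletion was above siCCNF, and the interaction was 0.73 ± 0.14 (adjusted p = 0.00251). Rmi2 (0.97 ± 0.20), Fancb (0.71 ± 0.16), Fanca (0.59 ± 0.20), Chek1 (0.57 ± 0.14), Fancl (0.50 ± 0.14), Xrcc3 (0.49 ± 0.16) and Rad54l (0.47 ± 0.14) were the others.

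The interaction contains the comparison of siKEAP1 with siCONTROL and shares its libraries. Blm, which also fell after siKEAP1, had an interaction of 0.34 with a 95% interval of -0.14 to 0.81. No interaction was called for Topbp1 (0.23, -0.03 to 0.48), Eme1 (0.33, -0.06 to 0.71) or Brca1 (0.19, -0.16 to 0.54). Keap1 itself was higher in the double depletion than after siKEAP1 alone, by 0.93 ± 0.08 on the log2 scale (adjusted p = 1.07e-06), so its mRNA was depleted less there, and 5 of the 8 proliferation markers also had a positive called interaction. Their part in the interaction of the repair genes was not tested. Members called numbered 6 to 12 when each library was left out, where 1218 to 1734 of all genes tested were called positive. The number was 17 without both libraries with a length trend, where 16.4% of all genes tested were called positive. Then Brip1 (0.64, adjusted p = 8.47e-05), Topbp1 (0.38, adjusted p = 0.00055), Fanci (0.70, adjusted p = 0.013) and Polq (0.65, adjusted p = 0.00224) were among them. With a length trend removed, the calls over all genes tested went from 1582 negative and 1599 positive to 1599 negative and 2539 positive.

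**Figure D4:**
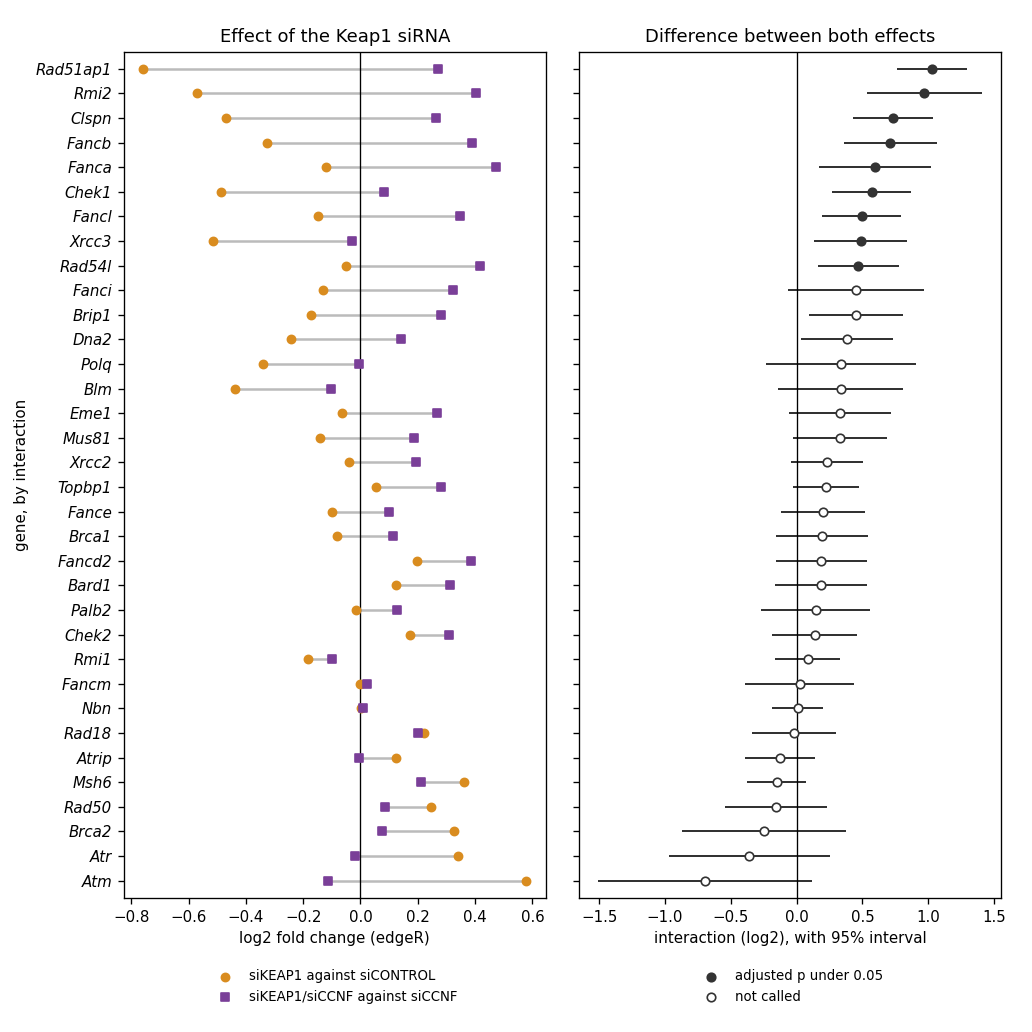
On the left, the log2 fold change of each gene after siKEAP1 against siCONTROL (orange circles) and in siKEAP1/siCCNF against siCCNF (purple squares) is joined by a line; on the right is their difference, the interaction, with 95% intervals and filled points for an adjusted p under 0.05. The filled points are the upper 9 genes, from 1.03 for Rad51ap1 down to 0.47 for Rad54l, and the widest interval is that of Atm.

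The wider repair and checkpoint genes were counted from a list drawn up by class, with earlier results of these data known. Of the list 108 were tested (Neil2, a base excision glycosylase gene, did not pass the filter). After siCCNF 57 were lower and 18 were higher, with a median of -0.31 on the log2 scale, beside the 25.5% and 22.5% of all genes tested. Checkpoint and damage signalling genes had 17 lower and 1 higher of 24. There Cdc25c, the phosphatase that activates CDK1, fell most (-1.38 ± 0.12, adjusted p = 8.65e-07), and its relative Cdc25a was the one that rose (0.28 ± 0.06, adjusted p = 0.00276). Further homologous recombination genes had 11 lower and 2 higher of 20, from Wrn, the Werner helicase gene (-1.20 ± 0.16, adjusted p = 4.37e-05), to Rad51d, which acts in strand exchange (0.70 ± 0.10, adjusted p = 9.16e-05). Further Fanconi genes had 4 lower and 1 higher of 12, led by Usp1, which removes ubiquitin from FANCD2 (-0.89 ± 0.05, adjusted p = 5.28e-08), with a rise of the nuclease gene Ercc4 (0.33 ± 0.09, adjusted p = 0.00881). Mismatch repair had 4 lower and 1 higher of 6, with Msh3 (-0.73 ± 0.08, adjusted p = 7.36e-06) and Mlh3 (0.39 ± 0.12, adjusted p = 0.0149) at its ends.

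The remaining classes act outside recombination. Base excision genes had 10 lower and 1 higher of 17, from the uracil glycosylase gene Ung (-1.33 ± 0.16, adjusted p = 1.33e-05) to the ligase gene Lig3 (0.65 ± 0.13, adjusted p = 0.000874). End joining genes had 4 lower and 1 higher of 8, from Nhej1 (-1.14 ± 0.29, adjusted p = 0.00587) to the kinase gene Prkdc (0.76 ± 0.19, adjusted p = 0.00504). Nucleotide excision genes had 5 lower and 6 higher of 13, with the damage sensor gene Ddb2 lowest (-0.67 ± 0.20, adjusted p = 0.0122) and Ercc8, a transcription-coupled repair gene, highest (0.72 ± 0.12, adjusted p = 0.000209). Translesion genes had 2 lower and 5 higher of 8, where the polymerase gene Polh fell (-1.36 ± 0.07, adjusted p = 1.84e-08) and the ligase gene Shprh rose (0.64 ± 0.15, adjusted p = 0.00348). Differences between classes were not tested. In the other comparisons the list had 25 lower and 10 higher genes after siKEAP1 (20.2% and 20.4% of all genes tested), 43 and 16 in the double depletion against siCONTROL (23.6% and 20.6%), 37 and 14 against siKEAP1 (26.9% and 24.1%), and 1 and 8 against siCCNF (2.19% and 3.00%). The interaction was negative for 5 and positive for 20, beside 10.5% and 10.6% of all genes tested.

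**Figure D5:**
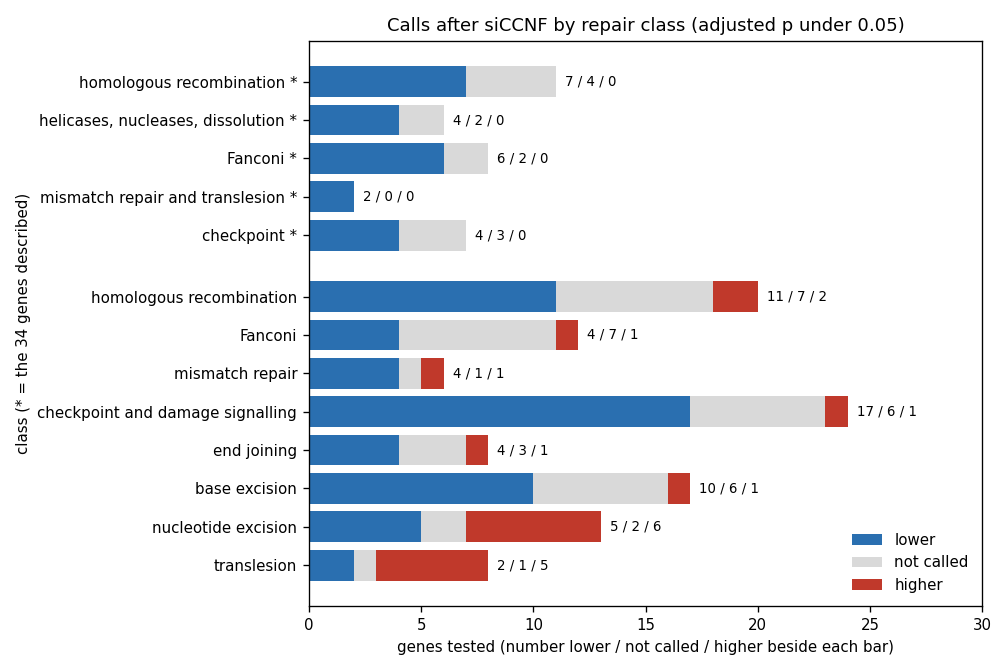
The bars count the genes of each class that were lower (blue), not called (grey) or higher (red) after siCCNF against siCONTROL, with the 34 genes described above marked by an asterisk and the 108 further genes below them. Red is absent from the upper bars and largest in the nucleotide excision (6 of 13) and translesion (5 of 8) bars.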

How the data were processed

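Poly(A)-selected RNA of 12 C2C12 libraries was sequenced and analysed by Novogene for the authors. The authors deposited 1 table with whole-number counts of reads per gene without normalization, FPKM values per library (scaled by gene length and library total), group means, and log2 fold changes with p-values for each depletion against siCONTROL, and the group means and these comparisons were not used. The submitters' processing notes name HISAT2 and GRCm39, with no version; the counting tool, annotation and strand setting are not given in the sources used here. Of the 54532 gene identifiers, 54495 are in GENCODE M21 on GRCm38, and 53585 have the same start and end there, so coordinates are given as GRCm38. Growth medium held 5% serum per the labels, and the study's methods give another value.

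The counts were fitted in R 4.3.3 by edgeR 4.0.16 (filterByExpr, TMM, quasi-likelihood fit of 4 group means to all 12 libraries, Benjamini-Hochberg adjustment over the 15122 genes tested). A gene was called at an adjusted p under 0.05. Standard errors and 95% intervals are from the same fit, and ± in the text is the SD of 3 libraries for levels and the SE for log2 fold changes. The interaction is siKEAP1/siCCNF minus siCCNF, minus the difference between siKEAP1 and siCONTROL. TMM factors lay between 0.971 and 1.02. Libraries of 1 group differed by more than sampling noise (chi-square per gene 2.88 to 41), so none was counted as a repeat. P-values measure the spread between these replicates of 1 line.

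The members, the gene lists, the promoter strings and the rule for named genes were chosen with earlier results of these data known. Every member could be named. The rule gave values in every library to the 3 largest called falls and rises after siCCNF, the 2 largest after siKEAP1 and the 2 smallest adjusted p of the interaction in each direction, and the other library values were chosen after seeing the data. Promoters are those of RefSeq on GRCm38.p6. Printed stretches end before the gene in the deposited table starts. Alternatives were DESeq2 1.42.0, total library sizes, no filter beyond 1 count, at least 10 counts in every library, a replicate block, limma 3.58.1 on log2(FPKM + 1), a gene length trend removed by a spline with 5 degrees of freedom, fits of the compared groups only, a 2-fold limit, and leaving out each library or both libraries with a length trend. The code was tested on simulated data.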

Additional observations from a re-analysis of the deposited data

Results flagged for a closer look

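For 9 members the effect of the Keap1 siRNA differed between cells with and without Ccnf siRNA by the interaction test across all genes (edgeR's quasi-likelihood test, n = 3 libraries in each of 4 groups). The interaction on the log2 scale was 1.03 for Rad51ap1 (adjusted p = 8.54e-05), 0.97 for Rmi2 (0.00417), 0.73 for Clspn (0.00251), 0.71 for Fancb (0.00745), 0.59 for Fanca (0.0486), 0.57 for Chek1 (0.0108), 0.50 for Fancl (0.0222), 0.49 for Xrcc3 (0.0499) and 0.47 for Rad54l (0.0327). Leaving out each of the 12 libraries in turn, Rad51ap1, Rmi2, Clspn, Fancb and Chek1 were called in 12 of 12 fits, Fancl in 11, Rad54l in 5, Xrcc3 in 3 and Fanca in 2. Without both libraries with a length trend the values of the same genes were 0.98, 0.85, 0.85, 0.82, 0.85, 0.64, 0.46, 0.53 and 0.39, all called.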

How the results depend on the processing

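No member changed sign while called under any alternative run. With a gene length trend removed, siKEAP1 gave 11 lower and 3 higher members with a median of -0.16, where 28.6% and 18.8% of all genes tested were called so. There siKEAP1/siCCNF against siKEAP1 gave 2 higher members (32.1% of all genes tested) and a median of -0.20. Against siCCNF 6 were higher (3.92%), and the interaction had a median of 0.34. This setting also moved the medians of all genes tested, from -0.01 to -0.09, from 0.00 to 0.09 and from 0.01 to 0.08 for siKEAP1, siKEAP1/siCCNF against siKEAP1 and the interaction. Without both libraries with a length trend, siKEAP1 gave 2 higher members (23.6% of all genes tested) and siKEAP1/siCCNF against siKEAP1 a median of -0.21. There siKEAP1/siCCNF against siCCNF gave 12 higher (7.31%), and the interaction 17 positive (16.4%) with a median of 0.37. With limma on log2(FPKM + 1) the medians were -0.40 after siCCNF, -0.25 in the double depletion against siCONTROL and -0.21 against siKEAP1. There 0 members were higher against siCCNF, where 423 of all genes tested were. Adding 1 to low FPKM values shrinks log2 differences by construction. Against siCCNF, 6 were higher with DESeq2, 2 with total library sizes, 3 with no filter beyond 1 count and 0 in a fit of the compared groups only. Over all genes tested, 736, 566, 503 and 263 were higher in the same order, against 454 in the main fit. With no filter beyond 1 count 3 members were higher after siKEAP1 and 1 interaction (Atm) was negative and called. There 3130 and 1731 of 28084 genes tested were called so. With the 2-fold limit added, 5 members were lower after siCCNF and 1 interaction was positive, and the counts after siKEAP1, in the double depletion against siCONTROL, against siKEAP1 and against siCCNF were 0.

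Leaving out 1 library at a time, the medians ranged from -0.60 to -0.52 after siCCNF, from -0.41 to -0.29 in the double depletion, from -0.34 to -0.21 against siKEAP1 and from 0.20 to 0.31 for the interaction. Higher members numbered 1 to 2 after siKEAP1, 0 to 2 against siKEAP1 and 0 to 8 against siCCNF, and lower members against siKEAP1 10 to 18. Among all genes tested the same counts were 2574 to 3270, 3074 to 4154, 200 to 734 and 3591 to 4475. Over the 34 members and 6 comparisons these fits gave 2322 values on the same side of the threshold, 96 that lost and 30 that gained a call. Replicate numbers were not used as pairs in the main fit. Of 18 pairs of same-numbered libraries, 4 had a correlation of deviations over 0.1, in a range from -0.268 to 0.204. The lowest values involve a library with a length trend, so these correlations cannot settle whether replicates were paired. A replicate block left 23 members lower after siCCNF, and over all comparisons 4 members' calls were lost and 1 was gained. Causes of these shifts were not tested. Depth limits little here, with at least 85 counts for each member in each library.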
